A study of Mus musculus with 8 samples.

Results

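The immunoglobulin heavy chain variable segments were the rows of the expression table whose gene symbol starts with Ighv and whose Max group mean was above 0. This value is the mean normalized expression of whichever of the 2 groups had the higher mean. Of 115 Ighv rows, 94 met this rule, among 41018 genes in all, of which 28225 (68.8%) were above 0. The members were therefore chosen by their own Max group mean, so all levels given here are a description, with no test. RNA had been sequenced from CD11b+ bone marrow (BM) cells of female C57BL/6 mice, which were between 5 and 8 weeks of age, in 4 samples from mice educated with pancreatic cancer-derived extracellular vesicles (PC-EVs) and 4 samples from control mice. The PC-EVs came from the mouse pancreatic adenocarcinoma line PAN02 and were injected at 5 µg, 3 times per week for 3 weeks. The controls received PBS on the same schedule and carry the label Untreated. CD11b+ cells, a myeloid population of granulocytes, monocytes and their precursors, were enriched from femurs and tibiae with magnetic beads. The number of animals behind each sequenced sample is not stated.

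Each variable (VH) segment encodes most of the antigen-binding domain of an antibody heavy chain. In a developing B cell the RAG enzymes cut at recombination signals beside 1 VH segment, 1 D segment and 1 J segment and join them, and the joined exon is then spliced to a constant region such as that of IgM. A B cell thus carries 1 productive heavy chain, and plasma cells, its antibody-secreting descendants, transcribe that rearranged segment at very high levels. Mouse VH segments are grouped in families by sequence similarity, and the first number of the symbol names the family, so Ighv1-26 is a VH1 segment.

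The value used here is 1 number per gene, and the value itself does not show which group it came from. The deposited columns of the authors' comparison, which bear on that, were not used. Values of 2 segments may thus come from different groups, a sum over segments is the repertoire of neither group, and nothing here compares PC-EV-educated with PBS samples. The spread between the 4 samples of a group could not be computed. In a bulk sample, moreover, fewer cells of a type and less RNA per cell cannot be told apart. The Max group mean has no unit in the file and behaved as RPKM, a fragment count scaled for gene length and library size. Low values fell on 8 repeated steps that corresponded to 1 fragment in 1 of 8 libraries of 4.22e+07 to 5.35e+07 fragments, so the number of fragments summed over a group's 4 samples could be recovered as a range for each segment. Intervals given with levels are 95% exact Poisson intervals for that number, and cover counting error only.

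The most abundant segment was Ighv1-26, at a Max group mean of 21.8 RPKM (counting interval 20.8 to 22.8), resting on 1595 to 2021 fragments. It lies on the minus strand of chromosome 12 at 114788372 to 114788805 (GRCm38), is annotated as a V gene whose transcript takes up 351 of its 434 bases, and is also the segment for which the study lists a pair of quantitative PCR primers. The variable part of Ighv1-26 is printed 5′ to 3′ with that of Ighv1-64, the second most abundant segment, to show what sequence the leading values stand for. Both are 294 bases long, from the GENCODE M21 transcripts (GRCm38). Capitals in Ighv1-26 mark the stretch between the outer ends of the qPCR primers, and capitals in Ighv1-64 mark the 41 bases at which it differs from Ighv1-26.
Ighv1-26: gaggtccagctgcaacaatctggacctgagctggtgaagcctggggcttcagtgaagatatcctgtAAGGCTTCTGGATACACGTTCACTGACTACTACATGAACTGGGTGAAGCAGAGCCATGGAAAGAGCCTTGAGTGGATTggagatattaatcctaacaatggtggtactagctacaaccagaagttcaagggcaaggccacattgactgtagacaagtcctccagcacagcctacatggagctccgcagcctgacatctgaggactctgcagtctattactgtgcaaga
Ighv1-64: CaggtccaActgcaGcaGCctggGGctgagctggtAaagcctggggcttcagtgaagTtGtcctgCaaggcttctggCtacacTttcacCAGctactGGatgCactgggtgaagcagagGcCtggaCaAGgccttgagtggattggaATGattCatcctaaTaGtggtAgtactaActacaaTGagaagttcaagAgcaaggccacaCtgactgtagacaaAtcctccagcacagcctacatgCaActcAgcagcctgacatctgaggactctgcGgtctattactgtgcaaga

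Both sequences end in tgtgcaaga, which holds the codon of the conserved cysteine before the junction with D and J. Ighv1-64 lies on the minus strand of chromosome 12 at 115507545 to 115508031. Its level of 2.26 RPKM (1.96 to 2.59) rested on 186 to 236 fragments, and the level of Ighv1-26 was 9.62 times as high.

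Levels fell steeply after the first rank. Ighv1-26 alone held 50.7% of the sum over the 94 segments, which was 43.0 RPKM, and 21.2 RPKM remained without it. The 5 most abundant segments held 63.9% and the 10 most abundant 72.2%, and the other 84 segments together held 27.8%. It took 35 segments to reach 90% of the sum. The median segment stood at 0.115 RPKM (quartiles 0.0493 and 0.250), and the median over all genes above 0 was 0.102 RPKM. Ighv levels were per whole span of the gene, intron included, while over all genes exon length matched the steps more often. These medians may thus not be on the same length scale. Ighv1-26 stood at 189 times the median segment.

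After Ighv1-64 followed Ighv3-8, a VH3 segment, at 1.42 RPKM (1.18 to 1.69). The counting intervals of Ighv1-26, Ighv1-64 and Ighv3-8 did not overlap each other. Ighv1-80, a VH1 segment at 1.15 RPKM (0.924 to 1.41), was next, and its interval overlapped that of Ighv3-8. Only these 4 segments reached 1 RPKM. The next 6 were close together and their neighbours in the order overlapped in counting error. Ighv1-53 stood at 0.853 RPKM, Ighv1-9 at 0.841, Ighv1-81 at 0.814, Ighv6-3 at 0.742, Ighv3-6 at 0.631 and Ighv1-74 at 0.562. The eleventh segment, Ighv1-82, stood at 0.532 RPKM, within the counting interval of Ighv1-74 (0.411 to 0.752). Of the 10 most abundant segments, 7 belonged to VH1, 2 to VH3 and 1 to VH6.

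**Figure D1:**
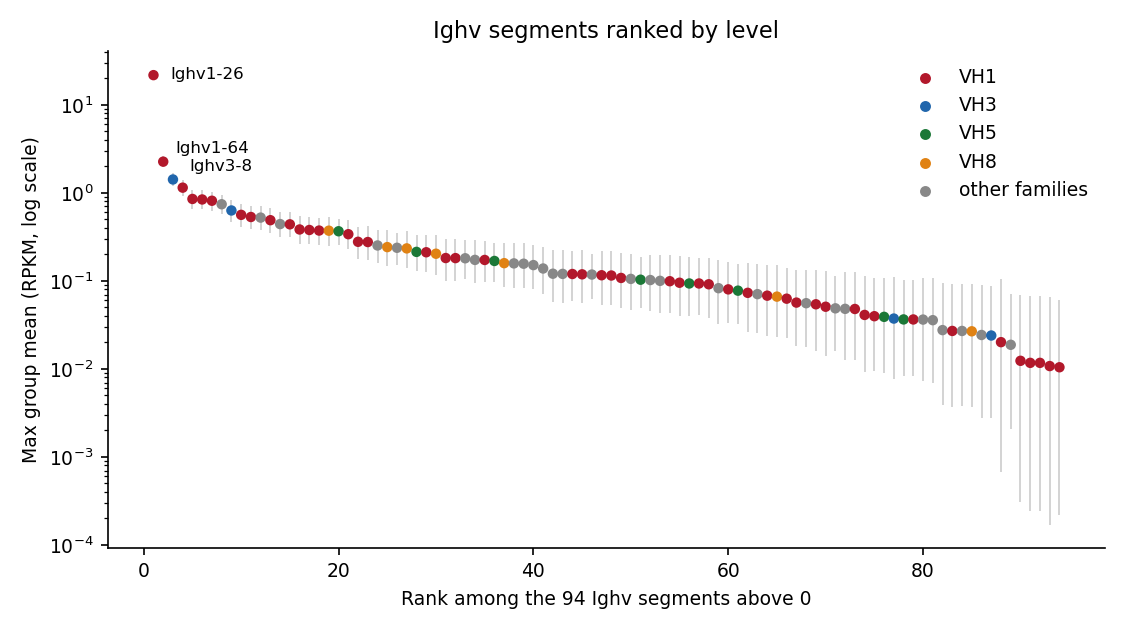
Max group mean (RPKM, log scale) of the 94 Ighv segments above 0, ranked from highest to lowest and coloured by VH family, with 95% exact Poisson counting intervals as grey bars. Ighv1-26 at 21.8 RPKM stands 9.62 times above Ighv1-64, and from there the levels fall gradually to 0.0104 RPKM, with intervals that widen as the fragments run out.

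At the other end, 41 segments were below 0.1 RPKM. That level corresponded to 7.48 to 9.48 fragments summed over 4 samples for a segment of the median span, 443 bases. The lowest were Ighv1-62-3 at 0.0104 RPKM and Ighv1-58 at 0.0108 RPKM, and no member was below 0.01. Both rested on 1 fragment in 1 sample, as did 4 other segments, all in VH1, whose values matched a step within 0.1%. Just outside the rule stood 21 rows listed at 0. The median segment rested on about 9.43 fragments, and 50 segments on at most 10 by the same estimate, or 43 when the upper end of each segment's range was taken. By the lower end of the range, over 100 fragments were reached by 3 segments, Ighv1-26, Ighv1-64 and Ighv3-8. The range of Ighv1-80, 83.8 to 106 fragments, included 100. Order among the segments in the lower part of the list was therefore not resolved at this depth, and a segment at 1 fragment and one at 0 did not differ beyond counting error.

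By family, VH1 dominated in number and in level. VH1 is the largest family of this mouse strain's locus, and 47 of its 54 rows were above 0. Its share of the sum was 79.5%, Ighv1-26 made up 63.7% of the family's own sum, and without Ighv1-26 it held 58.4% of the remaining sum. The median VH1 segment stood at 0.115 RPKM, the same as the median of all 94 segments. The weight of VH1 thus rested on its many segments and on a few abundant ones, and not on a high level of its typical segment. Within VH1 the levels ran from 0.0104 to 21.8 RPKM, the widest range of any family.

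VH3 came second with 4.92% of the sum, from 4 of 6 rows. Its 2 abundant segments, Ighv3-8 and Ighv3-6, stood at 1.42 and 0.631 RPKM, while its other 2 segments above 0 were at 0.0373 and 0.0239 RPKM. VH8 held 3.03% from 7 of 9 rows and was led by Ighv8-8 at 0.372 RPKM. VH8 was more even than VH3, with Ighv8-8 at 28.5% of the family's sum against 67.2% for Ighv3-8. VH5, the family nearest to the D and J segments together with VH2, held 2.55% from 8 of 11 rows, led by Ighv5-17 at 0.366 RPKM.

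The other families each held less than 2% of the sum. VH6 had 2 of 5 rows above 0, and Ighv6-3, at 0.742 RPKM, held 91.3% of its sum. VH7 was led by Ighv7-3 at 0.442 RPKM and VH9 by Ighv9-3 at 0.524 RPKM, which held 84.0% of the VH9 sum. In VH9 all 4 rows were above 0, but the family median was only 0.0360 RPKM. VH2 had 8 of 9 rows above 0 at uniformly low levels, up to 0.157 RPKM for Ighv2-9. VH14 had 4 of 4 rows above 0, up to 0.158 RPKM for Ighv14-2, and VH10 had 2 of 2, up to 0.252 RPKM for Ighv10-3. Ighv11-2 led VH11 at 0.118 RPKM. VH11 and VH12 are the families known in mice from B-1 cells with antibodies to phosphatidylcholine, and the highest of their segments here was Ighv11-2. The single segments of VH4, VH12 and VH13 were Ighv4-1 at 0.181 RPKM, Ighv12-3 at 0.1001 RPKM and Ighv13-2 at 0.102 RPKM. The single rows of VH15 and VH16 were listed at 0, so 14 of 16 families had a segment above 0.

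**Figure D2:**
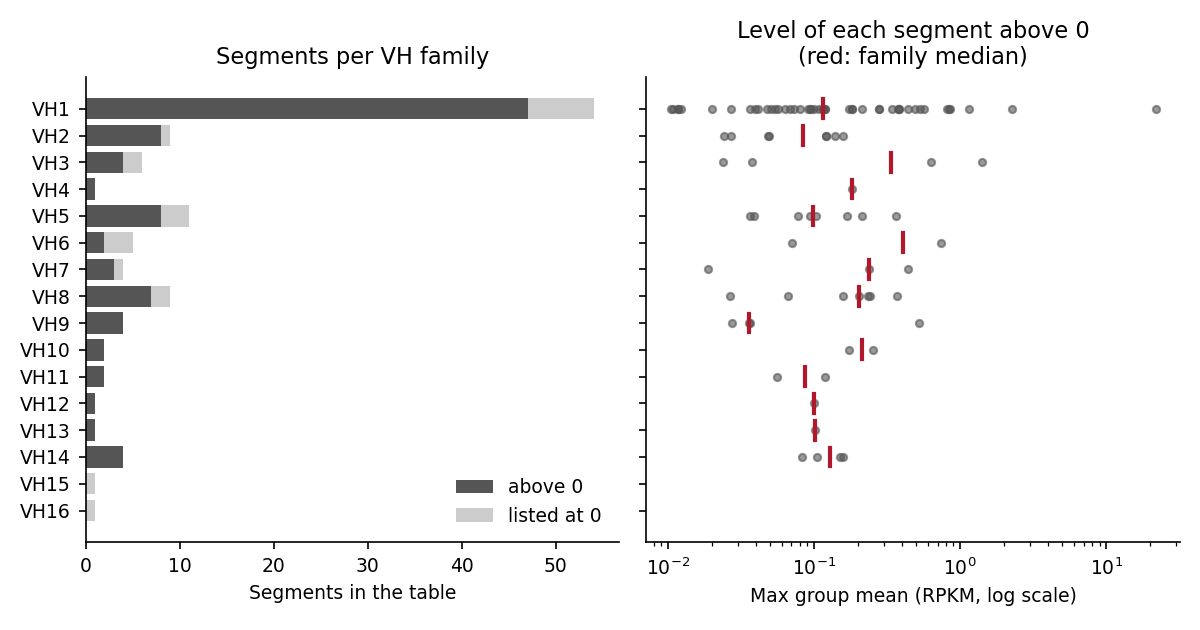
Left, number of Ighv rows per VH family, above 0 (dark) and listed at 0 (light). Right, Max group mean (RPKM, log scale) of each segment above 0, with the family median in red. VH1 has 47 of 54 rows above 0 and spans 0.0104 to 21.8 RPKM, yet its median of 0.115 RPKM lies within the range of the other families' medians.

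The segments differ in the sequence with which they meet D and J, and the last 45 bases of the leading VH5, VH14, VH2 and VH8 segments are shown beside the tgtgcaaga end of Ighv1-26 and Ighv1-64. Ighv5-17 may not be typical of its family in this respect, since most VH5 rows hold tgtgcaaga somewhere in the transcript. Capitals mark the TGT codon of the conserved cysteine.
Ighv5-17: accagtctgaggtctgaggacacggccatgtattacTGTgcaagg
Ighv14-2: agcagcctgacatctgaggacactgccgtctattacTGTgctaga
Ighv2-9: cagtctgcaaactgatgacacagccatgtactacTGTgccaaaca
Ighv8-8: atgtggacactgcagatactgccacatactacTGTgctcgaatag

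TGTGCAAGA was searched anywhere on the transcript strand, not only at its end. It was present in 64 of 115 rows (55.7%) and in 56 of the 94 segments above 0 (59.6%). It was found in 46 of 54 VH1 rows, 8 of 11 VH5 rows and 4 of 6 VH3 rows, and in none of the 9 VH2 or the 9 VH8 rows. Among the 10 most abundant segments 8 held it. For Ighv3-8, on the minus strand at 114322327 to 114322801, the annotated transcript continues past the coding end, so that its last 118 bases also show a recombination signal. Capitals mark TGTGCAAGA, the heptamer CACAGTG and the 9 bases that follow a spacer of 23 bases, which is the layout of the signal beside VH segments.
Ighv3-8: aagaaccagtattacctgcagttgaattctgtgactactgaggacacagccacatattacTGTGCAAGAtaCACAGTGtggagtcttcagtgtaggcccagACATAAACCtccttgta

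CACAGTG, searched anywhere in the transcript, was present in 3 of 115 rows (2.61%), including the segment printed above. A match alone does not show a recombination signal. The leading VH5 segment was also among these rows, but its printed end holds no CACAGTG. Its match thus lies before the cysteine codon and is not the signal. The position of the match in the remaining row was not examined. The recombination signal is removed from the message when the segment is joined to D and J, and these values did not separate joined from unjoined transcripts.

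Along chromosome 12 the 115 rows spanned 2422 kb, from 149 to 2570 kb upstream of the J segments. The nearest member, Ighv5-2, stood at 0.0365 RPKM and the farthest, Ighv1-85, at 0.0991 RPKM. VH2 and VH5 occupied the stretch within 449 kb of the J segments, VH1 began at 1057 kb and, with VH8, made up the far end of the locus. Family and position were thus not independent, and no separate effect of either was estimated.

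In 4 bins of equal width, 29 of 35 rows were above 0 in the bin nearest to J, 23 of 34 in the second, 21 of 23 in the third and 21 of 23 in the farthest. Their shares of the sum were 9.18%, 64.4%, 8.18% and 18.2%. The second bin owed its share to Ighv1-26, which at 1359 kb from J sat at the border of that bin, and when the bins were drawn with equal numbers of rows it fell in the third, which then held 60.3% against 13.7% for the second. Without Ighv1-26 the equal-width bins held 18.6%, 27.9%, 16.6% and 36.9%. The median segment was at 0.105, 0.108, 0.0952 and 0.211 RPKM from the nearest to the farthest bin. The farthest bin held 4 of the 10 most abundant segments, Ighv1-64, Ighv1-74, Ighv1-80 and Ighv1-81. The others were Ighv1-26, Ighv3-8, Ighv1-9, Ighv6-3 and Ighv3-6 in the second bin and Ighv1-53 in the third. Across the 94 segments the Spearman correlation of level with distance from J was 0.19, and 0.195 within VH1. These segments share libraries and the correlation is weak, so it is given as a description.

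**Figure D3:**
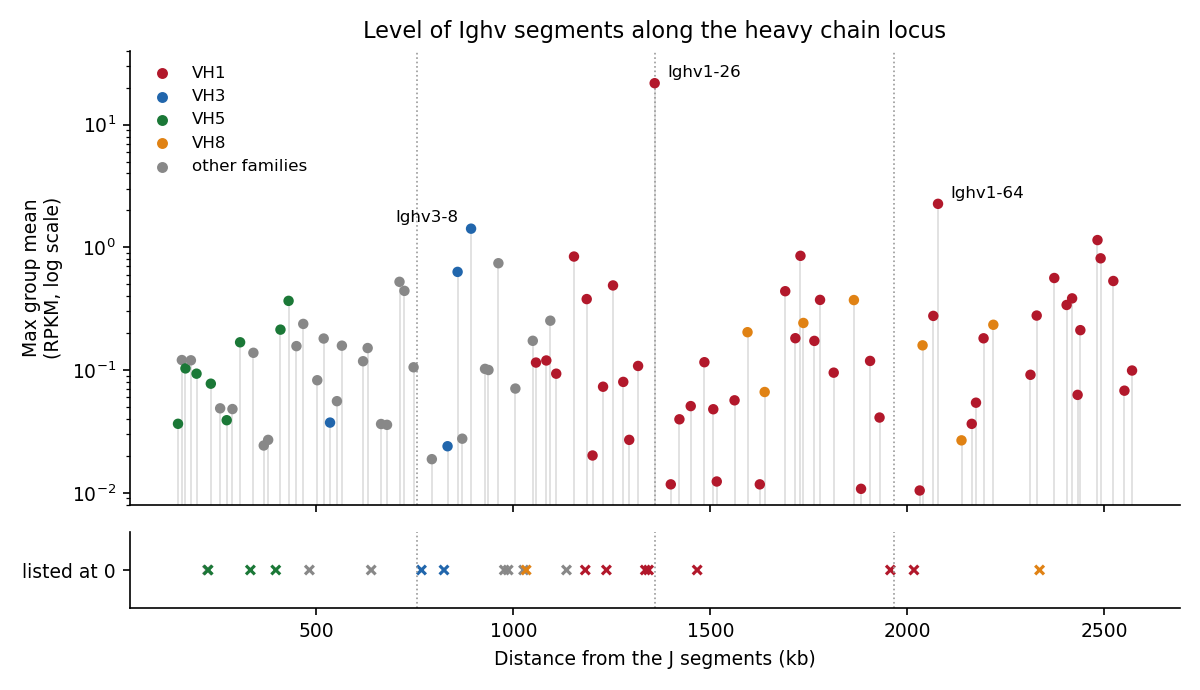
Max group mean (RPKM, log scale) of the 94 Ighv segments against their distance from the J segments (kb), coloured by VH family, with the 21 rows listed at 0 as crosses in the lower panel and the borders of the 4 equal-width bins as dotted lines. Ighv1-26 stands alone at 21.8 RPKM at the border between the second and the third bin.

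Levels of adjoining rows could differ widely. The rows next to Ighv1-26 were Ighv1-24, listed at 0, and Ighv1-31, at 0.0117 RPKM and 1 fragment. Both are named for their position and were chosen after their values were seen. They are neighbours among the 115 rows only. Of the 183 annotated Ighv genes some are not rows, among them Ighv1-25, Ighv1-28 and Ighv1-30. The neighbours of Ighv1-64, Ighv1-63 and Ighv8-11, stood at 0.276 and 0.0267 RPKM. Of the 20 flanking places of the 10 most abundant segments, 10 held a row below 0.1 RPKM, 5 of them at 0, and 1 held a row of at least 1 RPKM. That exception was the adjoining pair Ighv1-80 and Ighv1-81, next to which Ighv1-82 stood at 0.532 RPKM. Among all 115 rows, 53 reached 0.1 RPKM, 21 were at 0 and 4 reached 1 RPKM. The flanking places were thus much like the rows as a whole. Rows listed at 0 occurred in all 4 bins but unevenly, with 6 of 35, 11 of 34, 2 of 23 and 2 of 23 from the nearest to the farthest. RefSeq marked 4 of the 115 rows as pseudogenes, and 3 of these, Ighv7-1, Ighv7-3 and Ighv1-13, were above 0, at 0.238, 0.442 and 0.0201 RPKM. They too were picked out after their values were seen, except Ighv7-3.

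Because segments of a family resemble each other, reads from one can be assigned to another. Among the 115 rows, the segment nearest in sequence had a median identity of 95.4% (75.6% to 99.7%) and belonged to the same family for 91 of 94 segments. No stretch of 150 bases, the length of 1 read, was shared with another annotated Ighv segment for 88 of the 94, and this included the 10 most abundant. For stretches of 50 bases, 82 segments shared at least 1. Ighv1-71, at 0.0915 RPKM, was the least separable, sharing 96.2% of its 150-base stretches, and its level is uncertain for that reason. Rearranged segments can also carry somatic mutations, which were not analysed here.

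The closest relatives of Ighv1-26 among the 115 rows were chosen by sequence and not by level. They were Ighv1-18 at 96.9% identity, Ighv1-34 and Ighv1-22 at 96.6%, Ighv1-19 at 96.3% and Ighv1-36 at 94.0%. Their levels were 0.489, 0.0397, 0.108, 0.0800 and 0.0508 RPKM, so none of the 5 came above 0.489 RPKM, against 21.8 RPKM for Ighv1-26. The qPCR primers listed by the study for Ighv1-26 are aaggcttctggatacacgttc (forward) and aatccactcaaggctctttcc (reverse), and they enclose 78 bases. That stretch is printed for the 6 segments, since it shows how few bases separate the most abundant segment from its relatives. In Ighv1-26 capitals mark the 6 bases at which any of the 5 relatives differs, and in the relatives the bases that differ from Ighv1-26.
Ighv1-26: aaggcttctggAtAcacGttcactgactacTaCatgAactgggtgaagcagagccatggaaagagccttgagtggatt
Ighv1-18: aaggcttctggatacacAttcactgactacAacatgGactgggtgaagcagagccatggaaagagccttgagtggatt
Ighv1-34: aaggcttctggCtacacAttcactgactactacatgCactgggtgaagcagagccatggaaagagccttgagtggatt
Ighv1-22: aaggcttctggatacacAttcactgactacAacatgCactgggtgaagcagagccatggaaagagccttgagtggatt
Ighv1-19: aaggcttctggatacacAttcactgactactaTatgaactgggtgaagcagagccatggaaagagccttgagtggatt
Ighv1-36: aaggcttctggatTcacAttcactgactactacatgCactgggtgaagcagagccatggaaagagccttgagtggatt

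Each relative differed from Ighv1-26 at 2 or 3 of the 78 bases, and all 5 differed at the same base within the forward primer. The exact forward site occurred in 1 row of the table and the exact reverse site in 10, and Ighv1-26 was the only one of 183 annotated Ighv genes to hold both. Among the rows of the table, Ighv1-18, Ighv1-19 and Ighv1-22 had 1 mismatch over both primers, and Ighv1-34 and Ighv1-36 had 2. Ighv1-33, annotated but not a row of the table, also had 1. Ighv1-26, Ighv1-64 and Ighv3-8 were chosen as the most abundant segments, so standing above relatives of lower rank follows from that choice. The nearest relative of Ighv1-64, Ighv1-53 at 95.4% identity, was itself the fifth most abundant segment. The nearest relative of Ighv3-8 was Ighv3-6 at 88.0%, the ninth most abundant. For Ighv1-64 and Ighv3-8 the most similar segment was thus itself among the 10 most abundant, and for Ighv1-26 it was not. That segment, Ighv1-18, ranked 13, and its counting interval (0.348 to 0.668) overlapped that of Ighv1-74 at rank 10 (0.411 to 0.752).

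**Figure D4:**
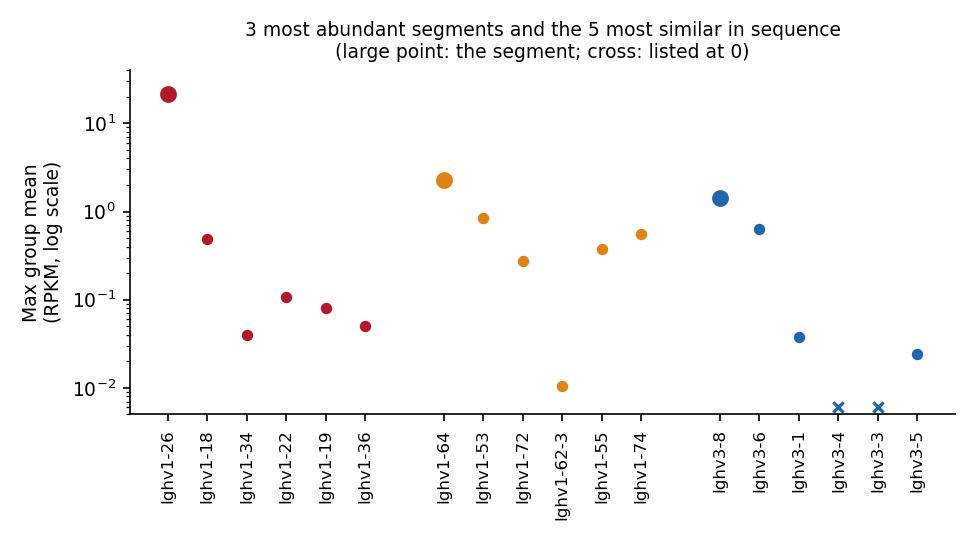
Max group mean (RPKM, log scale) of Ighv1-26, Ighv1-64 and Ighv3-8 (large points). Each is followed by its 5 most similar segments among the 115 rows, in order of sequence identity (small points, crosses for rows listed at 0). The relatives of Ighv1-26 lie between 0.0397 and 0.489 RPKM, while Ighv1-53 and Ighv3-6 lie within 3 times of the segment they resemble.

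Other parts of the antibody genes showed how the segments compare with the rest of the transcript. Ighm, the constant region of IgM, was the highest heavy chain constant gene at 31.9 RPKM, followed by Igha, of IgA, at 3.05 RPKM. The remaining constant genes were lower, with Ighg1 at 0.334 RPKM, Ighd and Ighg3 at 0.202 RPKM each, Ighg2b at 0.0607 RPKM, Ighg2c at 0.0494 RPKM and Ighe at 0.00148 RPKM, a single fragment. Levels of the Ighv rows, and of Ighe, were per length of the gene's whole span, intron included, and for the other constant genes the divisor was not determined, which limits a comparison between segments and constant genes. The kappa light chain constant gene Igkc stood at 70.0 RPKM. Kappa variable segments had a like pattern to the heavy chain ones, with 82 of 100 rows above 0 (82.0%, against 81.7%), and their most abundant segment, of the Igkv4 family, held 59.8% of their sum at 22.1 RPKM. All 17 heavy chain D segments were listed at 0, and 3 of 4 J segments were above 0, up to 0.508 RPKM. Whether reads can be assigned to D segments was not examined, so their 0 does not show that transcripts lack D sequence. Jchain, which joins IgM and IgA into polymers, stood at 3.07 RPKM.

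Myeloid markers matched the CD11b+ label, with 9 of 10 listed genes found, between 40.6 RPKM for Csf1r and 42151 RPKM for S100a9. Itgam, which encodes CD11b, was not analysed here. Markers of other cells that transcribe heavy chain segments were also above 0, at much lower levels. The 10 B cell markers ranged from 0.0337 to 3.54 RPKM (median 0.370), the 7 B cell precursor markers from 0.0175 to 0.154 RPKM and the 9 plasma cell markers from 0.0507 to 28.0 RPKM (median 0.379). No marker found was at 0. The highest of the plasma cell list was Xbp1, which myeloid cells also express. How these levels moved with the Ighv levels over samples could not be seen in a table of single values, and their part in the Ighv levels was not tested.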

How the data were processed

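Total RNA of CD11b+ BM cells (4 PC-EV-educated and 4 PBS samples) was sequenced by the authors from stranded, ribosomal RNA-depleted libraries and mapped to GRCm38. The submitters' processing notes also name edgeR. Aligner and annotation release were not given in the sources used here. Of the values that the authors deposited per gene, the Max group mean was used, whose unit they do not name and which was read as RPKM because its low values, multiplied by length, fell on repeated steps. Columns of the authors' own comparison of the groups (fold changes, p-values and adjusted p-values) and the separate list of differentially expressed genes were not used.

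The steps were found over all genes from the value multiplied by the gene's whole span, and the search was checked on simulated data. Within 0.1%, 1233 genes then matched a step by span and 4290 by the exon length of the GENCODE M21 annotation. For Ighv rows the divisor was the whole span, since 5 segments of more than 1 exon matched a step by span and none by exon length. Steps cannot be assigned to samples or groups. Coordinates equalled those of M21 for 115 of 115 rows, and RefSeq (GRCm38) types were matched for 115. Sequences came from M21 transcripts and the study's primer list. Identity was computed by pairwise alignment.

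No test was run, since the table holds no value of a single sample, and precision is known only as counting error. The tests planned for single-sample values could not be made. The members, and the lists beside them, were chosen with earlier results of these data known. Segments were named by rule, namely the 10 most abundant, the most abundant of each family, the nearest to and farthest from J, the 2 lowest and the one with qPCR primers. Others were named after their values were seen. Promoters were not analysed here. Python 3.11.15, pandas 2.3.3, numpy 2.4.6, scipy 1.17.1, Biopython 1.88 and matplotlib 3.10.9 were used. Alternatives were the threshold for members, the scale of the value, the bins of position, pseudogenes and the leading segment.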

Additional observations from a re-analysis of the deposited data

How the results depend on the processing

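A threshold of 0.1 RPKM left 53 of 94 members, while one of 0.01 left all 94. Without Ighv1-26, VH1 fell from 79.5% to 58.4% of the sum, VH3 rose to 9.96%, VH8 to 6.15% and VH5 to 5.18%, and the 4 equal-width bins of position held 18.6%, 27.9%, 16.6% and 36.9%, as follows from removing the largest value. With equal numbers of rows in each, the 4 bins held 6.52%, 13.7%, 60.3% and 19.5%. Ighv1-26 then lay in the third bin in place of the second, and rows led by Ighv9-3 and Ighv7-3 in the second in place of the first. Multiplying each value by the span gave 78.7% for VH1, 49.3% for Ighv1-26 and 63.1% for the 5 most abundant. Without the RefSeq pseudogenes the median was 0.115 RPKM, and without Ighv1-26 the Spearman correlation was 0.192.

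No paired analysis was possible because the value used is 1 number per gene, the larger of the 2 group means. For the same reason no replicate was left out. Levels below about 0.1 RPKM rest on under 10 fragments summed over 4 samples. Counting intervals leave out the spread between samples, and no order of segments was tested.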
